A study of Mus musculus with 24 samples.

Results

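Interscapular brown adipose tissue of mice with a brown-fat knockout of Hdac3 (KO) was compared with that of mice carrying the floxed gene alone (Control), 7 d after a short exposure to cold. Every gene in the authors' deposited table of this comparison was taken, which gave 12467 of the 13162 genes listed in any of the 5 tables, measured in 8 of the 24 RNA-seq libraries (4 per genotype). All mice were males on C57BL/6J aged 10 to 12 weeks, all killed at ZT10 of the daily light schedule. Control mice were HDAC3 floxed and KO mice were Ucp1-cre HDAC3 floxed; the labels do not say whether each mouse carried 1 or 2 copies of either allele. Both genotypes had been held at 15 °C for 24 h and then returned to 22 °C for 7 d. Comparable pairs of groups, 4 libraries each, came from mice kept at 22 °C without cold exposure and from mice killed 24 h after the return, and are used here only to show where the 7 d comparison differs. The labels call the libraries biological replicates and do not say whether each came from its own mouse, so p-values measure the spread between libraries.

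Brown fat burns fatty acids and glucose in mitochondria and releases the energy as heat through uncoupling protein 1, the product of Ucp1. Hdac3 is the catalytic histone deacetylase of the nuclear receptor corepressor complexes, and in brown fat it is also known as a coactivator of the nuclear receptor ERRα, which drives Ucp1 and genes of oxidative phosphorylation. The Cre recombinase is driven by the Ucp1 promoter and therefore acts in brown adipocytes, while whole tissue also holds vessels, nerve, immune cells and adipocyte precursors that keep the gene. In such bulk tissue, fewer cells of a type and less RNA per cell cannot be told apart.

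Unless another source is named, the fold changes, group means and adjusted p-values below are the authors' deposited ones. A gene is called when the deposited adjusted p is under 0.05. Levels are RPKM, read counts scaled to transcript length and library total. Values of single libraries were recovered from the deposited means wherever exactly 1 set of 4 whole read counts gives the mean. Libraries are numbered by depth within a group, from the deepest, and these numbers are not the replicate numbers of the labels. Totals ran from 4637903 to 12538811 reads in Control and from 7114081 to 10398250 in KO. Control library 2 and KO library 1 were rich in skeletal muscle transcripts, at 5274 and 4537 CPM (counts scaled to the library total) summed over 27 marker genes, against 32.3 to 119 in the other 6 libraries. KO library 2 held the highest value of its group for 36.0% of the 11799 genes solved in all 8 libraries. The 4 KO libraries lay wholly above those of Control for 1060 of these genes and wholly below for 1670, 23.1% in all. Of the solved genes called higher 83.8% were apart in this way, and of those called lower 91.5%. Library values here and below carry no scaling factor between libraries. The factors were 1.01 to 1.03 in Control and 0.9445 to 1 in KO, so unscaled values lean toward lower in KO. Where a called gene is said below not to overlap, this adds little to the call. The tissue carried its defining markers in both genotypes, with deposited means of 1625 RPKM in Control and 1259 in KO for Cidea and of 1718 and 1921 RPKM for Cox8b, although the transcription factor genes Zic1 and Lhx8 were close to the listing limit of 0.5 RPKM (0.692 and 0.993 RPKM in Control).

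The knockout was visible in every library. Hdac3 stood at 25.5, 23.4, 28.7 and 23.9 RPKM in the 4 Control libraries and at 8.15, 5.82, 8.40 and 7.36 RPKM in the 4 KO libraries. The groups did not overlap, and the deposited log2 fold change was -1.71 (adjusted p = 6.4e-29). Several partners of Hdac3 rose. Tbl1xr1, a WD40 subunit of the corepressor complex, had a deposited log2 fold change of 1.75 (adjusted p = 1.5e-34), from a Control range of 7.38 to 9.24 RPKM to a KO mean of 26.6 RPKM. Its paralog Tbl1x was at 13.5, 12.4, 12.1 and 14.1 RPKM in Control and at 30.1, 36.8, 32.4 and 31.8 RPKM in KO, a deposited log2 fold change of 1.40 (adjusted p = 1.0e-23). Every KO library lay above every Control library. Ncor1, the scaffold that activates Hdac3, rose by a deposited log2 value of 0.59 (adjusted p = 3.6e-05), whereas Gps2 (0.27, adjusted p = 0.34), a further subunit, did not pass. Of the 15 other deacetylase genes listed, Sirt5, a mitochondrial desuccinylase, fell to a log2 value of -0.91 (adjusted p = 2.4e-04), with 15.4 to 16.9 RPKM in Control and 7.44 to 9.09 in KO. Sirt7 fell to -0.50 (adjusted p = 0.031), and the other 13, the class I enzymes Hdac1, Hdac2 and Hdac8 among them, were not called. The 2 of 15 that fell stand beside 6.14% of all rows.

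**Figure D1:**
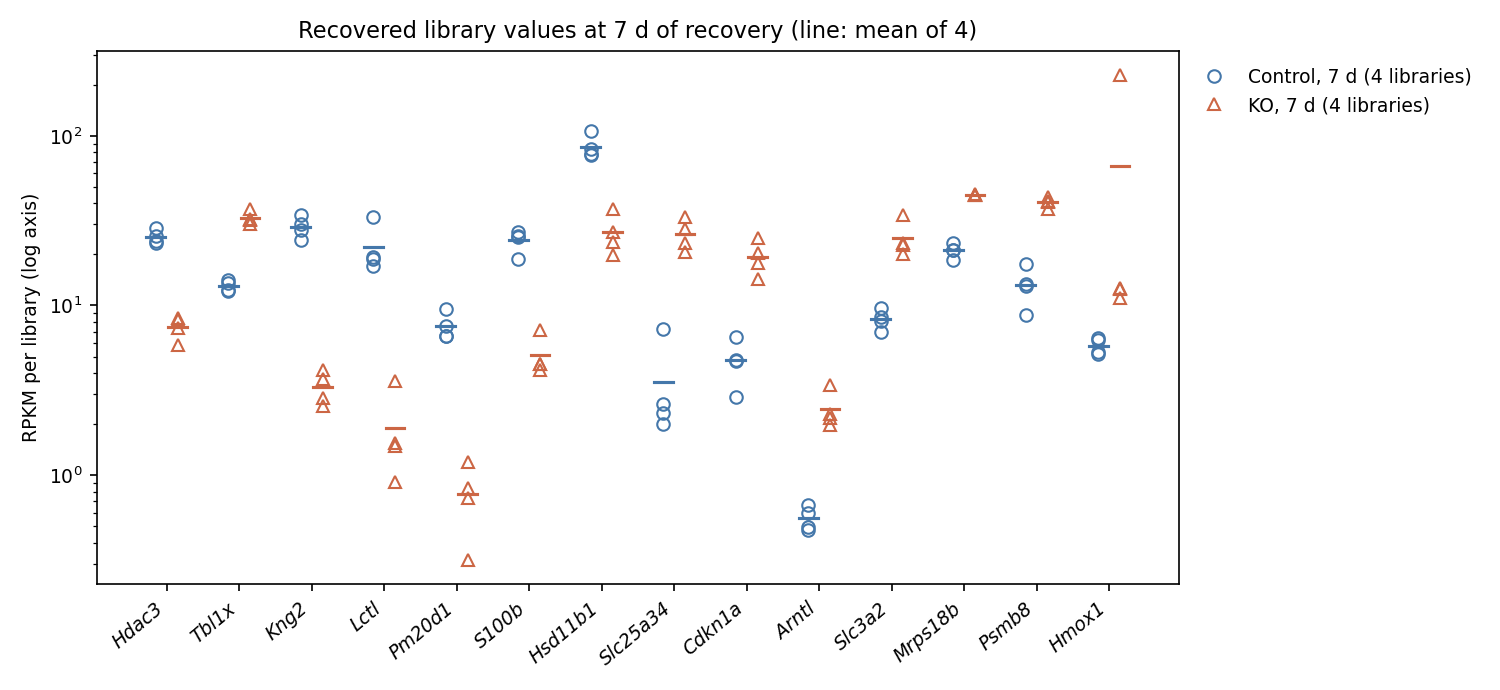
RPKM per library (log axis) of 14 genes at 7 d of recovery, circles for the 4 Control and triangles for the 4 KO libraries, with a line at each mean. Hdac3 lies between 5.82 and 8.40 RPKM in KO and between 23.4 and 28.7 in Control, and for Hmox1 a single KO library stands at 228 RPKM, far above the other 3.

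Across all genes, 1910 of 12467 were called in the authors' deposited table (15.3%), 1144 of them higher in the KO (9.18%) and 766 lower (6.14%). Of these, 264 were at least 2-fold higher and 177 at least 2-fold lower, and the median log2 fold change over all rows was -0.01. Without scaling factors the recovered reads gave 895 genes higher and 1350 lower, so the balance between the directions depends on the scaling, while limma-voom with scaling gave 1198 higher (10.4%) and 918 lower (7.98%) among 11506 genes. With the muscle-rich libraries left out, limma-voom called 1085 higher (9.5%) and 802 lower (7.02%) of 11425, 16.5% in all.

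Several of the largest rises were in genes with few reads in Control. Rasef, Hgd, Sec14l2 and Cbs had Control means under the listing limit of 0.5 RPKM (0.0226, 0.0569, 0.186 and 0.0319). They were listed through their KO means alone, and a ranking by fold favours such genes. The intervals and library values below are of genes picked by that fold and do not test it anew. Not all large rises were of this kind, as Cyp2e1 had a Control mean of 80.8 RPKM. Rasef, which encodes a small GTPase of the Rab family with EF-hand domains, was at 2.49, 4.28, 1.89 and 1.71 RPKM in the KO libraries, and only 3 reads were recovered in all of Control. The ratio of read rates was 139, with a 95% counting interval of 47.2 to 676 (Clopper-Pearson, counting error only). Hgd, homogentisate dioxygenase of tyrosine breakdown, had 2 recovered reads in Control and 122 in KO, a ratio of 51.3 (95% counting interval 13.9 to 429). Fah, the enzyme that ends the same pathway, rose by a deposited log2 value of 1.53 (adjusted p = 7.9e-25) from 36.1, 43.7, 40.6 and 40.6 RPKM in Control to a KO mean of 110 RPKM. Sec14l2, a lipid-binding protein gene, was at 2.45 to 4.97 RPKM in KO and 0.0684 to 0.346 in Control (4.34, adjusted p = 1.4e-06), and Cbs, cystathionine beta-synthase, had 108 recovered reads in KO and 4 in Control. Rasef, Hgd, Sec14l2 and Cbs were each higher in every KO library than in any Control library, and for Fah the KO libraries could not be recovered singly.

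Cytochrome P450 genes known from liver were also among the largest rises. Cyp2e1 averaged 753.5 RPKM in KO, against 46.7, 137, 37.2 and 102 RPKM in the Control libraries (deposited log2 fold change 3.29, adjusted p = 1.1e-13). Cyp2b10, a target of the xenobiotic receptor CAR in liver, was at 82.8, 37.7, 26.0 and 28.3 RPKM in KO and 7.22, 7.29, 2.03 and 3.90 in Control (3.15, adjusted p = 7.6e-08). For Cyp2b10 every KO library lay above the Control range, whereas for Cyp2e1 the KO libraries could not be recovered singly. Genes of this family have near-identical copies between which reads could be split. Chil3, Gldc, Rpl39l, Cyp2f2 and Hmox1 were also among the 12 largest rises, but rested on few reads or leaned on 1 library. Cyp2f2 had 134 recovered reads in KO, 84 of them from 1 library, and 12 in Control, and Gldc had 82 and 8, with overlapping libraries. For Chil3, 55 recovered reads in KO stood against 4 in Control, and 37 of the 55 came from 1 library.

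The genes with the largest falls encode proteins of several kinds. Ptgds, which encodes a prostaglandin D2 synthase, was at 7.83, 7.05, 20.0 and 3.21 RPKM in Control and at 0.358, 0.882, 0.461 and 1.05 RPKM in KO, a deposited log2 fold change of -3.72 (adjusted p = 1.9e-09). Lctl, a klotho-related membrane protein gene, was at 19.4, 18.8, 33.2 and 17.2 RPKM in Control and 1.55, 3.60, 0.913 and 1.49 in KO (-3.47, adjusted p = 3.5e-25). Pm20d1, the secreted enzyme that makes N-acyl amino acids in thermogenic fat, was at 9.53, 6.58, 7.57 and 6.64 RPKM in Control and 0.842, 0.315, 0.735 and 1.19 in KO (-3.25, adjusted p = 1.9e-23). In all 3 genes the Control and KO libraries were fully apart. Ntrk3, the receptor of neurotrophin 3, fell from 11.8 to 20.6 RPKM in Control to 0.819 to 2.86 in KO (-3.23, adjusted p = 1.1e-13), and Slc2a5, the fructose transporter, from 4.71 to 8.71 to 0.320 to 1.46 RPKM (-3.04, adjusted p = 7.4e-07). Zfp185, an actin-associated LIM protein gene, fell as clearly, with a deposited log2 fold change of -3.33 (adjusted p = 3.8e-15).

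Kng2, a kininogen gene, combined a large fall with a small spread. It was at 34.0, 30.1, 28.0 and 24.5 RPKM in Control and at 4.16, 2.85, 2.55 and 3.68 RPKM in KO, with a deposited log2 fold change of -3.07 (adjusted p = 8.4e-35). S100b, a calcium-binding protein that brown adipocytes also secrete and that Schwann cells express, was at 25.5, 25.7, 27.2 and 18.7 RPKM in Control and 4.52, 7.14, 4.55 and 4.15 in KO (-2.18, adjusted p = 7.8e-21). Both genes separated the genotypes without overlap. Slc16a7, a monocarboxylate transporter (-2.01, adjusted p = 2.1e-15), and Spire1, an actin nucleator (-1.27, adjusted p = 1.7e-15), had among the smallest deposited p-values of the genes that fell. Lgr6, a receptor of R-spondins, was at 9.62, 6.47, 4.63 and 6.96 RPKM in Control and 2.15, 0.756, 0.308 and 1.01 in KO (-2.64, adjusted p = 3.6e-11). Sorcs2, Fgf14, Rnf128 and Entpd4 made up the rest of the 12 largest falls among genes whose average log2 CPM reached 1, with deposited log2 fold changes between -2.93 and -2.80.

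Ucp1, the defining thermogenic gene, had deposited means of 2948 RPKM in Control and 2163 in KO, a log2 fold change of -0.38 that did not pass (adjusted p = 0.58). In mice never put in the cold the deposited means were 1607 RPKM in Control and 32.8 in KO (log2 fold change -5.39, adjusted p = 4.2e-33), and the effect of the knockout on Ucp1 differed between 7 d and 22 °C by 5.00 on the log2 scale (adjusted p = 3.9e-16; errors rebuilt from the deposited p-values). Of 26 listed genes of the thermogenic programme, 4 rose and 2 fell at 7 d (9.18% and 6.14% of all rows), with a median log2 fold change of 0.17. Cidea (-0.30, adjusted p = 0.22), Ppargc1a, the coactivator PGC-1α (-0.61, adjusted p = 0.24), and Dio2, the deiodinase that activates thyroid hormone (0.87, adjusted p = 0.39), did not pass. Elovl3, which lengthens long-chain fatty acids in cold-exposed fat, rose from 39.6, 74.1, 26.3 and 43.6 RPKM in Control to a KO mean of 320.2 RPKM (2.87, adjusted p = 5.3e-07). Ppara rose by 0.41 (adjusted p = 0.039), Plin5, which holds lipid droplets at mitochondria, by 0.69 (adjusted p = 6.2e-05) and Adrb3, the main beta-adrenergic receptor of fat, by 0.65 (adjusted p = 0.042). Ebf2, a factor that specifies brown adipocytes, fell from 7.39 to 9.97 RPKM in Control to 4.05 to 5.67 in KO (-0.82, adjusted p = 2.8e-05).

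Called genes of the beta-adrenergic and cAMP list rose, except for Gnas. Gnas, which encodes the stimulatory G protein alpha subunit, fell by a deposited log2 value of 0.91 (adjusted p = 3.7e-06), and Gnai1, an inhibitory alpha subunit, rose by 1.496 (adjusted p = 2.4e-15), from 9.99, 13.9, 10.7 and 13.3 RPKM in Control to 30.8, 40.6, 30.6 and 26.5 in KO. The adenylyl cyclase genes Adcy3 (1.18, adjusted p = 6.2e-07) and Adcy5 (1.22, adjusted p = 0.0021), the kinase gene Prkaca (0.66, adjusted p = 1.2e-05) and the phosphodiesterase gene Pde3b (0.48, adjusted p = 0.0049) rose as well. In all, 6 of 21 listed members of the beta-adrenergic and cAMP list rose and 1 fell (9.18% and 6.14% of all rows).

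**Figure D2:**
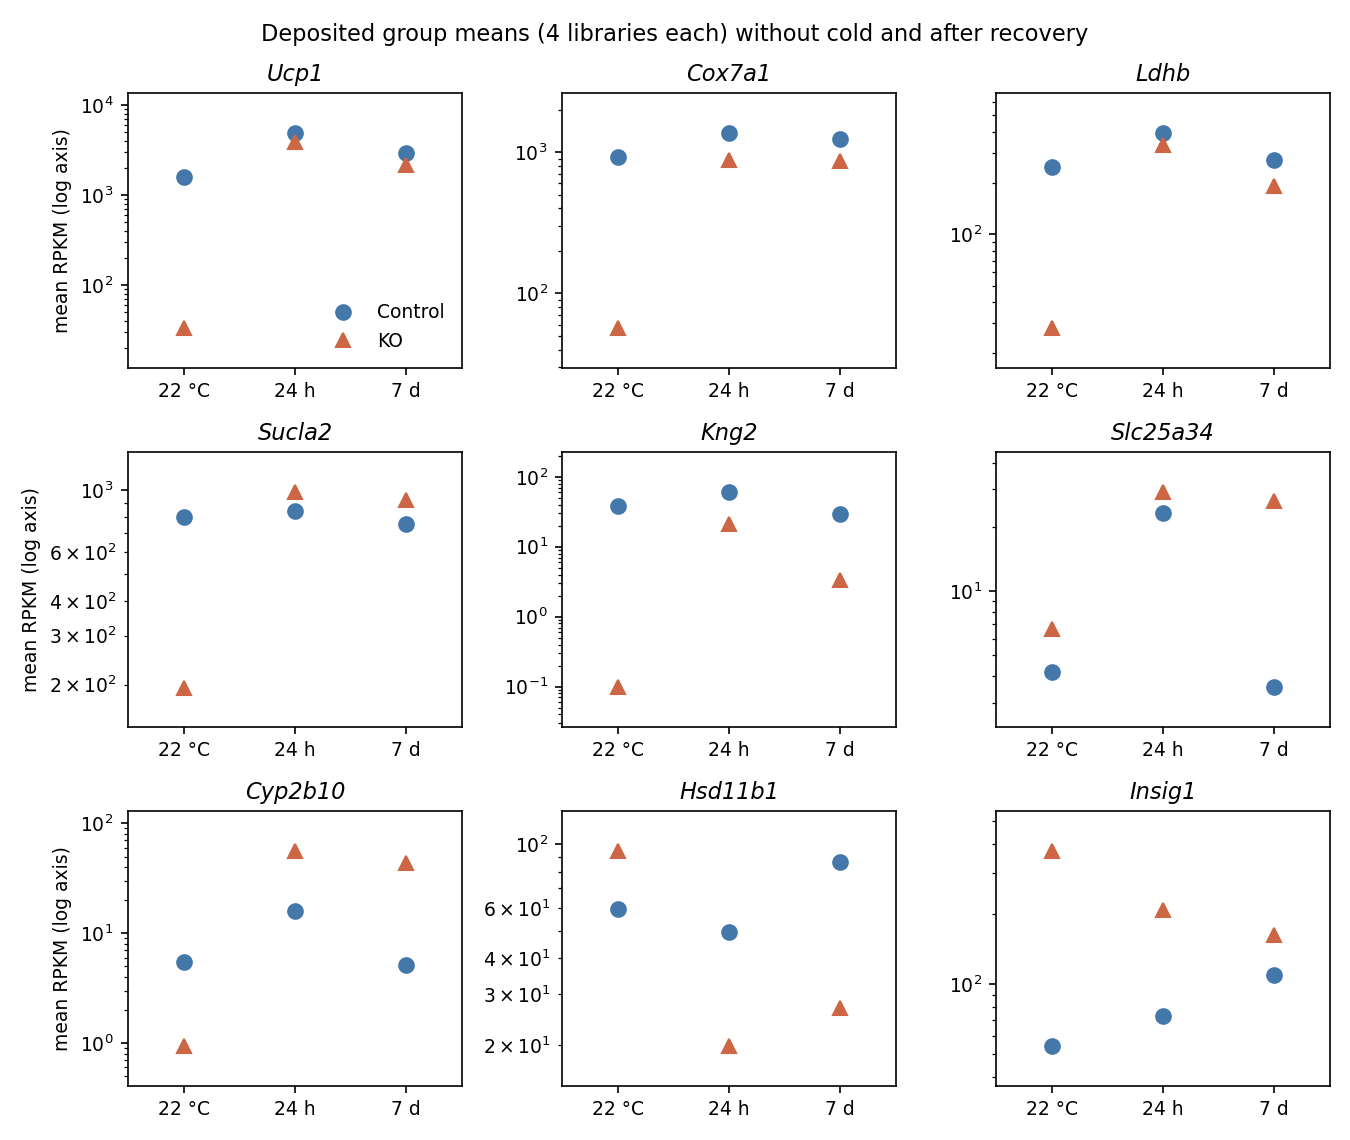
Deposited group means in RPKM (log axis) of 9 genes, circles for Control and triangles for KO, at 22 °C without cold and at 24 h and 7 d of recovery. Ucp1 in KO moves from 32.8 RPKM at 22 °C to 2163 at 7 d, and Slc25a34 at 7 d is at 3.54 RPKM in Control and 26.4 in KO.

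Most genes of oxidative phosphorylation that were lower in the KO at 22 °C were not called at 7 d. Of the 37 complex I genes, which encode the NADH dehydrogenase of the respiratory chain, 4 fell and 0 rose at 7 d (6.14% and 9.18% of all rows). The 37 had a median log2 fold change of -0.15 and values from -0.50 to 0.31. At 22 °C all 37 were called lower (18% of all rows were), with a median of -1.12, and the difference between the effects was called for 33 of the 35 members tested, all 33 toward higher at 7 d (9.53% of 10591 genes tested were). The members that fell at 7 d were Ndufs8 (-0.50, adjusted p = 0.013), Ndufa4 (-0.48, adjusted p = 0.0096), Ndufb2 (-0.42, adjusted p = 0.036) and Ndufv1 (-0.40, adjusted p = 0.046). Ndufb2 was at 221, 242, 238 and 181 RPKM in Control and 180.3, 126, 168 and 157 in KO. The highest KO library lay just under the lowest Control library only without scaling, since their scaling factors were 0.971 and 1.03. None of the 15 listed genes of complexes II and III and cytochrome c was called at 7 d, against 15 lower at 22 °C. Of 18 ATP synthase genes 1 rose and 1 fell at 7 d, whereas 15 were lower and 2 higher at 22 °C. The member that rose at 7 d, Atp5g1 (1.21, adjusted p = 0.048), which was also higher at 22 °C, shares reads with near copies and is uncertain.

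Of the 22 cytochrome oxidase genes 2 fell and 2 rose at 7 d, near the shares of all rows (6.14% and 9.18%). At 22 °C 19 were lower (18% of all rows were). Limma-voom called 3 of the 9 it could test higher and 0 lower (10.4% and 7.98% of all genes it tested). Neither gene that fell, Cox7b or Cox7a2, could be tested by it. Cox7b fell to a deposited log2 value of -0.62 (adjusted p = 1.1e-04), whereas the assembly genes Cox10 (0.46, adjusted p = 0.032) and Surf1 (0.40, adjusted p = 0.034) rose. Of the 19 citric acid cycle genes Fh1, fumarase, fell (-0.49, adjusted p = 0.0030) and Pcx, pyruvate carboxylase, rose (0.62, adjusted p = 2.8e-05). At 22 °C 17 of the 19 were lower (18% of all rows), and 16 of 18 tested had a called difference toward higher at 7 d (9.53% of all genes tested). Sucla2, a succinyl-CoA ligase subunit, had deposited means of 755 RPKM in Control and 923 in KO at 7 d, and of 801 and 195 RPKM at 22 °C, a difference between the effects of 2.15 (adjusted p = 1.1e-23).

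Among mitochondrial ribosome genes more were higher than lower. Of 76 listed members 12 rose and 3 fell at 7 d (9.18% and 6.14% of all rows), with a median of 0.11. At 22 °C 50 were lower and 0 higher (18% and 16.3% of all rows). A difference toward higher at 7 d was called for 41 of 73 tested (9.53% of all genes tested). Mrps18b, a small-subunit protein gene, was at 21.3, 21.2, 23.5 and 18.6 RPKM in Control and 45.7, 44.5, 44.6 and 45.0 in KO, with a deposited log2 fold change of 1.15 (adjusted p = 3.5e-11). Mrps30 was at 20.1 to 21.7 RPKM in Control and 30.3 to 33.0 in KO (0.69, adjusted p = 4.7e-05), and Mrpl45 at 22.4 to 26.5 and 33.6 to 39.1 RPKM (0.65, adjusted p = 6.9e-05). None of these overlapped between the groups. Of 26 genes of mitochondrial import and dynamics 5 rose (9.18% of all rows did), among them the import genes Timm50 (0.66, adjusted p = 7.5e-06) and Tomm70a (0.42, adjusted p = 0.0098), and Mtfp1, a fission factor gene, fell (-0.54, adjusted p = 0.0044).

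**Figure D3:**
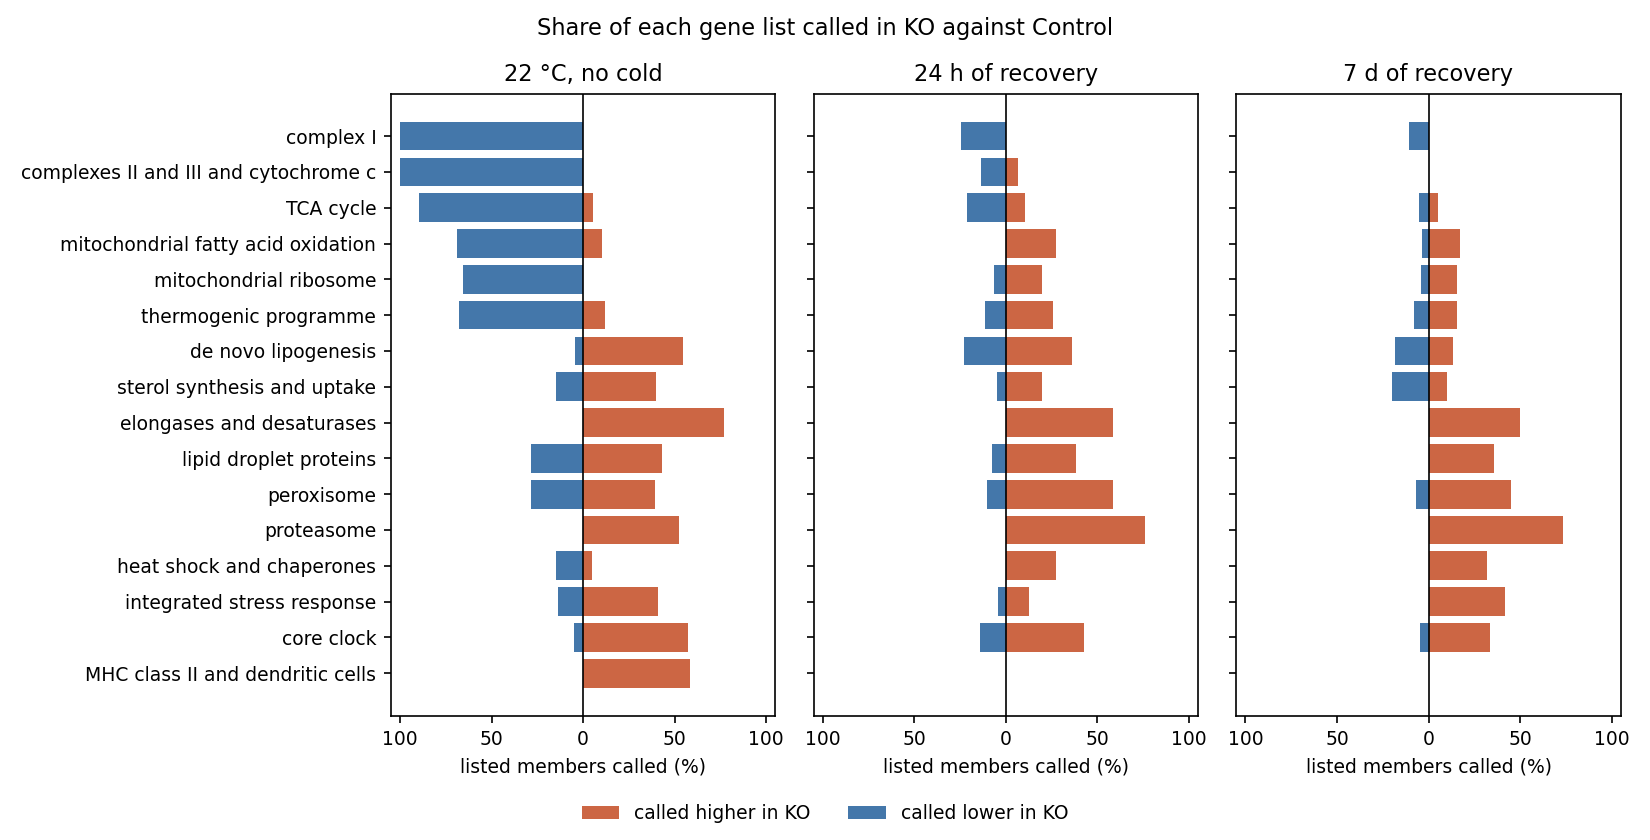
Percentage of the listed members of 16 gene lists called higher (right) or lower (left) in KO against Control, at 22 °C without cold and at 24 h and 7 d of recovery. For complex I, 37 of 37 are lower at 22 °C and 4 of 37 at 7 d, whereas 28 of 38 proteasome genes are higher at 7 d.

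Mitochondrial fatty acid oxidation was lower for 20 of 29 genes at 22 °C (18% of all rows). At 7 d it had 1 member lower and 5 higher (6.14% and 9.18% of all rows), with a median log2 fold change of 0.14. Of 28 tested, 19 differed between the conditions toward higher at 7 d (9.53% of all genes tested). Acaa2, the mitochondrial thiolase, was the member that fell (-0.63, adjusted p = 0.0011). Acad11 (1.09, adjusted p = 8.6e-12), Acsl1, which activates fatty acids at the membrane (1.05, adjusted p = 2.8e-10), and Mlycd, which breaks down malonyl-CoA (1.06, adjusted p = 1.4e-09), rose as deposited. Mlycd was at 41.2, 45.0, 41.7 and 33.4 RPKM in Control and 80.5, 94.1, 74.4 and 72.1 in KO, without overlap.

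Of 29 peroxisomal genes, 13 were called higher and 2 lower, with a median log2 fold change of 0.32 beside -0.01 over all rows and 9.18% of all rows called higher. Ehhadh, an enzyme of peroxisomal beta-oxidation, led, from 56.3, 60.8, 33.7 and 53.6 RPKM in Control to a KO mean of 237 RPKM (2.28, adjusted p = 2.4e-20). Pex16, which builds peroxisomal membranes, was at 36.6 to 42.5 RPKM in Control and 61.5 to 109 in KO (1.10, adjusted p = 7.4e-10). The called members that fell were Agps (-0.51, adjusted p = 6.5e-04), of ether lipid synthesis, and Phyh (-0.48, adjusted p = 0.024), of phytanic acid breakdown. At 22 °C 11 of 28 were higher and 8 lower (16.3% and 18% of all rows).

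Some genes of lipid storage and uptake rose at 7 d, and more rose than fell in each of 5 lists. The counts were 5 of 14 lipid droplet proteins, 6 of 14 lipolysis genes, 9 of 21 genes of lipid uptake and binding, 7 of 19 of glycerol handling and triglyceride assembly and 6 of 12 elongases and desaturases called higher, and 0, 0, 2, 1 and 0 called lower, beside 9.18% and 6.14% of all rows. At 22 °C the same lists had 6, 7, 11, 7 and 10 members higher and 4, 3, 5, 6 and 0 lower (16.3% and 18% of all rows). Plin2, a lipid droplet coat protein, rose from 288 to 1213 RPKM in the deposited means (2.14, adjusted p = 3.1e-23), Cidec, which enlarges droplets, from 553 to 1610 RPKM (1.61, adjusted p = 2.2e-24) and Lpl, lipoprotein lipase, from 774 to 2240 RPKM (1.60, adjusted p = 3.5e-25). Fabp4, the main fatty acid binding protein of adipocytes, went from 8980 to 18760 RPKM (1.13, adjusted p = 6.3e-17), and Apoe from 460.2 to 2417 RPKM (2.46, adjusted p = 3.1e-23). The differences of these 5 genes from their effects at 22 °C were between -0.51 and 0.34 on the log2 scale and none was called. Library values could not be recovered for such abundant transcripts.

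Enzymes that build and break triglyceride rose beside them. Agpat9, an acyltransferase of the first step of glycerolipid synthesis, was at 5.49, 7.69, 4.27 and 7.57 RPKM in Control and 27.6, 32.7, 19.4 and 14.8 in KO (1.98, adjusted p = 6.3e-08). Its lowest KO library was still above the highest Control library. Dgat2 (0.60, adjusted p = 0.0058), Lpin1 (0.76, adjusted p = 1.7e-04) and Mogat2 (1.64, adjusted p = 5.1e-05) rose, as did the lipase genes Pnpla2 (0.67, adjusted p = 0.0029) and Lipe (0.69, adjusted p = 3.3e-07) and the lipase coactivator Abhd5 (0.72, adjusted p = 7.9e-04). Against this, Acsl5, another fatty acid activating enzyme, fell from a Control mean of 192 RPKM to 58.9, 20.5, 30.8 and 48.3 RPKM in the KO libraries (-2.21, adjusted p = 2.7e-09).

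Fatty acid and sterol synthesis lacked the rise seen at 22 °C. Of 22 de novo lipogenesis genes 12 were higher and 1 lower at 22 °C, and 3 higher and 4 lower at 7 d, with medians of 0.72 and -0.01, and 9 of 20 tested had a difference called toward lower at 7 d (5.29% of genes tested were). Fasn, fatty acid synthase, had deposited means of 3378 RPKM in Control and 3159 in KO at 7 d (log2 fold change -0.03, not called). At 22 °C its means were 642 RPKM in Control and 3219 in KO. Slc25a1, the mitochondrial citrate exporter, fell at 7 d (-0.60, adjusted p = 0.036) where it was higher at 22 °C (1.71, adjusted p = 1.2e-13). Me1, malic enzyme, rose at 7 d (1.15, adjusted p = 8.3e-04). Insig1, which retains the sterol sensor in the endoplasmic reticulum, rose by 0.64 at 7 d (adjusted p = 0.012) and by 3.01 at 22 °C (adjusted p = 3.6e-43), a difference of -2.37 (adjusted p = 8.5e-14). Of 20 sterol synthesis and uptake genes, 2 rose and 4 fell at 7 d, against 8 and 3 at 22 °C. Beside the counts of both lists, 9.18% of all rows were higher and 6.14% lower at 7 d, and 16.3% and 18% at 22 °C.

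Of 25 genes of glucose uptake and glycolysis 3 were called higher and 4 lower, beside 9.18% and 6.14% of all rows. Pfkfb3, which makes the activator of phosphofructokinase, rose (1.49, adjusted p = 4.1e-07), and Pfkl, the liver-type phosphofructokinase, fell (-0.90, adjusted p = 6.8e-07). Aldoc, an aldolase, had 5 recovered reads in KO and 54 in Control (-3.42, adjusted p = 2.6e-07). Gbe1, which branches glycogen, fell (-0.95, adjusted p = 3.1e-08), as did Pygl, which degrades it (-0.79, adjusted p = 0.0034), while Gyg, the glycogen primer, was at 38.6, 49.1, 50.6 and 47.2 RPKM in Control and 91.8, 95.5, 74.3 and 85.7 in KO (0.97, adjusted p = 1.5e-10). Fbp2, the muscle-type fructose bisphosphatase, was at 15.5 to 24.7 RPKM in Control and 2.35 to 4.53 in KO (-2.36, adjusted p = 1.7e-12). Among 20 insulin signalling genes 6 rose and 0 fell (9.18% and 6.14% of all rows). Those that rose included Insr (0.73, adjusted p = 8.4e-07) and Akt1 (0.52, adjusted p = 0.0012).

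The proteasome, the protease complex that degrades ubiquitinated proteins, was the list with the largest share called. Of 38 genes 28 rose and 0 fell at 7 d (9.18% and 6.14% of all rows), with a median log2 fold change of 0.45. At 22 °C 20 rose (16.3% of all rows did) and at 24 h 29 (10.5%). Limma-voom on recovered reads called higher 26 of the 31 members solved in all libraries (10.4% of all genes it tested). Without the muscle-rich libraries it again called 26 of 31 higher (9.5%). Core subunits Psma1 (1.05, adjusted p = 6.6e-13) and Psma6 (0.94, adjusted p = 1.2e-12) and the regulatory particle genes Psmd4 (0.85, adjusted p = 8.1e-08) and Psmc4 (0.77, adjusted p = 3.2e-06) rose as deposited. Psma6 was at 96.95 to 102.3 RPKM in Control against a KO mean of 183 RPKM, and Psmc4 at 48.9, 57.3, 50.2 and 44.1 RPKM against 87.0, 81.5, 76.5 and 82.3. Psmc4 was fully apart between genotypes, and the KO libraries of Psma6 could not be recovered singly. Psmb8, an immunoproteasome subunit also on the interferon list, was at 8.80 to 17.6 RPKM in Control and 40.9, 43.8, 41.4 and 36.8 in KO (1.70, adjusted p = 9.7e-11). Nfe2l1, which encodes the factor known to induce proteasome genes, was not called (0.22, adjusted p = 0.21), with deposited means of 80.3 and 89.4 RPKM, and Ddi2, the protease that activates it, rose by 0.35 (adjusted p = 0.047).

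Chaperone and stress genes rose in part. The counts below stand beside 9.18% of all rows called higher and 6.14% called lower at 7 d. Of 22 heat shock and chaperone genes 7 rose and 0 fell, against 1 and 3 at 22 °C (16.3% and 18% of all rows). A difference toward higher at 7 d was called for 6 of 18 tested (9.53% of all genes tested). Hsp90aa1 rose from 43.3, 46.9, 42.6 and 44.3 RPKM in Control to a KO mean of 94.9 RPKM (1.17, adjusted p = 2.2e-07), and the mitochondrial chaperonin genes Hspd1 (0.60, adjusted p = 6.7e-06) and Hspe1 (0.59, adjusted p = 6.9e-04) rose together. Of 24 genes of the integrated stress response, the programme that slows translation and induces ATF4 targets, 10 rose and 0 fell. Slc3a2, an amino acid transporter heavy chain, was at 8.49, 8.12, 7.01 and 9.70 RPKM in Control and 23.4, 34.4, 22.6 and 20.1 in KO (1.66, adjusted p = 1.8e-11), and Atf4 itself at 28.2, 34.8, 28.3 and 39.5 RPKM and 53.6, 79.6, 57.4 and 54.2 (0.97, adjusted p = 4.2e-04). Neither overlapped between the groups. Of 22 endoplasmic reticulum stress genes Dnajb9 rose (1.42, adjusted p = 7.1e-11), and Eif2ak3, the kinase PERK, fell (-0.72, adjusted p = 7.8e-05), as did Sel1l (-0.36, adjusted p = 0.035).

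Part of the stress signal lay in a single KO library. Hmox1, heme oxygenase 1, was at 11.1, 228, 12.7 and 12.5 RPKM in KO and 5.31, 6.28, 5.16 and 6.43 in Control (deposited log2 fold change 3.56, adjusted p = 3.0e-04). All KO libraries were above Control, but limma-voom on the recovered reads did not call the gene (adjusted p = 0.18). The same KO library 2 was the highest for Dusp1, a stress-induced phosphatase (6.69, 41.8, 10.6 and 15.2 RPKM in KO, with Control between 2.79 and 9.07 and so overlapping), for Chil3 (2.44 RPKM) and for Gdf15, a stress cytokine (2.71 RPKM, and at most 0.114 in the other 3 KO libraries). Jun was high in 3 KO libraries, at 6.61, 20.2, 23.1 and 20.5 RPKM in KO and 4.202 to 4.939 in Control (2.05, adjusted p = 1.5e-04). Of 33 antioxidant genes 8 rose and 0 fell (9.18% and 6.14% of all rows). The superoxide dismutase gene Sod1 (0.53, adjusted p = 2.4e-04) and the peroxiredoxin gene Prdx6 (0.59, adjusted p = 7.5e-05) were among those that rose.

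Of 21 clock genes 7 were called higher and 1 lower (9.18% and 6.14% of all rows), and the other 13 were not called. Arntl, which encodes the core activator BMAL1, was at 0.494, 0.601, 0.476 and 0.667 RPKM in Control and 2.18, 3.38, 2.30 and 1.98 in KO (2.23, adjusted p = 1.0e-10). Its partner Clock rose (0.74, adjusted p = 3.1e-07), as did Rora, a nuclear receptor that activates Arntl, from 2.54 to 4.18 RPKM in Control to 4.40 to 6.53 in KO (0.82, adjusted p = 3.2e-06), and Nr1d1, the repressor REV-ERBα (0.91, adjusted p = 0.0015). Per3, a clock repressor, fell from 16.4 to 19.3 RPKM to 9.51 to 12.9 (-0.57, adjusted p = 0.013). All samples were taken at the same hour, so a change in level and a change in phase cannot be told apart. Outside the clock, the adipocyte factors Cebpa (0.95, adjusted p = 5.2e-07), Cebpb (0.85, adjusted p = 3.3e-04) and Klf15 (1.03, adjusted p = 0.0017) rose, and the cell cycle inhibitor Cdkn1a, p21, was at 4.72, 6.54, 2.90 and 4.79 RPKM in Control and 20.5, 25.1, 14.3 and 17.8 in KO (2.09, adjusted p = 6.1e-10). No cell cycle gene beyond Cdkn1a and Cdkn1b (-0.56, adjusted p = 0.0030) was called among 31 listed.

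Promoter sequences were read to see whether genes that moved shared a recognisable element. RefSeq windows from 250 bases before to 50 bases after a start (GRCm38.p6) were matched for 9495 of the 12467 rows. TNAAGGTCA, the element that ERRα binds, was searched on both strands. It was in 15 of 1223 windows of genes called higher (1.23%), 8 of 787 of those called lower (1.02%) and 83 of 12061 of all rows (0.688%). Of every reference promoter window, with genes outside the 7 d comparison included, 1.28% held it, at or above the shares of both called sets. TGACGTCA, the cAMP response element, was in 2.94% of windows of genes called higher, 2.16% of those called lower and 3.03% of all rows. TGACNNNGC, the core of the antioxidant response element, chosen after the proteasome values were seen, was in 3 of 26 windows of proteasome genes that rose (11.5%) and in 14.3% of windows of all rows. These shares describe letters in a short window and say nothing of binding. The window of Dusp1 (chr17:26508423-26508722, minus strand) and that of Elovl5, a fatty acid elongase that rose by 1.02 (chr9:77917115-77917414, plus strand), hold the cAMP response element, and that of Cyp2f2 (chr7:27119705-27120004, plus strand) holds the ERRα element. The window of Ndufb2, which fell, also holds the cAMP response element and is not shown. Dusp1, Elovl5 and Cyp2f2 are shown 5′ to 3′ as 3 genes that rose and carry a searched element, which is in capitals.
Dusp1: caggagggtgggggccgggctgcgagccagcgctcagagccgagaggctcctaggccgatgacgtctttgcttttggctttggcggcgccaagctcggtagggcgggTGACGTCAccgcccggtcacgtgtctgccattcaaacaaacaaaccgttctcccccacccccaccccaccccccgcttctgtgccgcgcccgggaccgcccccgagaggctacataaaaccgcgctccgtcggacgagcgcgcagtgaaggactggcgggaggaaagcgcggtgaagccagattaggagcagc
Elovl5: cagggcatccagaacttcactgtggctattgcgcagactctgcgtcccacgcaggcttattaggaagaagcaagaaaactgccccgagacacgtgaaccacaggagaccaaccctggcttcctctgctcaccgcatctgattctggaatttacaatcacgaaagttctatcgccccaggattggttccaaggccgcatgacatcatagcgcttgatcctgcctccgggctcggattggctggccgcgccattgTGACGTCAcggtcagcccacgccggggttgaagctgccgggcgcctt
Cyp2f2: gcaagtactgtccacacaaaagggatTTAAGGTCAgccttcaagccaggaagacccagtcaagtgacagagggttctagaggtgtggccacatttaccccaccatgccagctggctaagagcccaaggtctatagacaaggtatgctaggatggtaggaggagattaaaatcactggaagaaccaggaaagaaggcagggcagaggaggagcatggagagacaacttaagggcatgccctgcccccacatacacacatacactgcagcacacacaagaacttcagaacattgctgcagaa

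Markers of other cell types were measured beside these lists. Among 25 macrophage genes and 12 genes of MHC class II and dendritic cells 0 were called at 7 d, against 3 and 7 higher at 22 °C (16.3% of all rows). Summed macrophage markers ran from 261 to 432 CPM in Control and from 222 to 434 in KO, and endothelial markers from 877 to 1033 and from 937 to 1042, with the ranges overlapping in both. Summed markers of pericytes and smooth muscle ran from 702 to 805.5 CPM in Control and from 497 to 652 in KO, without overlap. Tagln (-0.89, adjusted p = 0.027) and Notch3 (-0.47, adjusted p = 0.043) were the members called in the deposited table, of 17 (6.14% of all rows were lower). Limma-voom called 7 lower (7.98% of all genes it tested), and 7 again without the muscle-rich libraries (7.02%). Markers of nerve and Schwann cells summed to 133 to 168 CPM in Control and 86.2 to 112 in KO. Of the 9, 3 were called lower (6.14% of all rows were), S100b and Cdh19 (-0.72, adjusted p = 0.011) among them. Without S100b the other 8 nerve markers summed to 94.5 to 126 CPM in Control and 78.6 to 104 in KO, which overlap. Of all 9, limma-voom called 3 lower (7.98% of all genes it tested), and 5 without the muscle-rich libraries (7.02%). Of 8 erythroid genes 3 were called higher (9.18% of all rows were), among them the near-identical Hba-a1 and Hba-a2 of hemoglobin (both 0.94, adjusted p = 0.030). Summed over the 4 erythroid markers solved, the libraries ran from 71.7 to 172 CPM in Control and from 116 to 361 in KO, which overlap. The part of these cells in the falls of S100b and Ntrk3 was not tested.

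Of 43 extracellular matrix genes 6 were called lower and 2 higher (6.14% and 9.18% of all rows), with a median of -0.35. Limma-voom called 2 of 35 lower and 3 higher (7.98% and 10.4% of all genes it tested). Col1a1 (-0.89, adjusted p = 0.035) and Col5a1 (-0.65, adjusted p = 0.031) were called lower in the deposited table but not by limma-voom (adjusted p = 0.079 and 0.069), and Lamb1 (0.86, adjusted p = 2.9e-06) and Lox (0.61, adjusted p = 0.014) were higher. Fibroblast markers, summed, ran from 329.5 to 509 CPM in Control and from 275 to 442.5 in KO. Col5a1 was at 6.39, 10.2, 8.33 and 11.6 RPKM in Control and 7.62, 5.15, 4.17 and 5.27 in KO, with the muscle-rich KO library the highest of its group and within the Control range. Without both muscle-rich libraries limma-voom called 9 of 35 matrix genes lower and 2 higher (7.02% and 9.5% of all genes it tested). The skeletal muscle list itself had 0 of 31 members called.

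**Figure D4:**
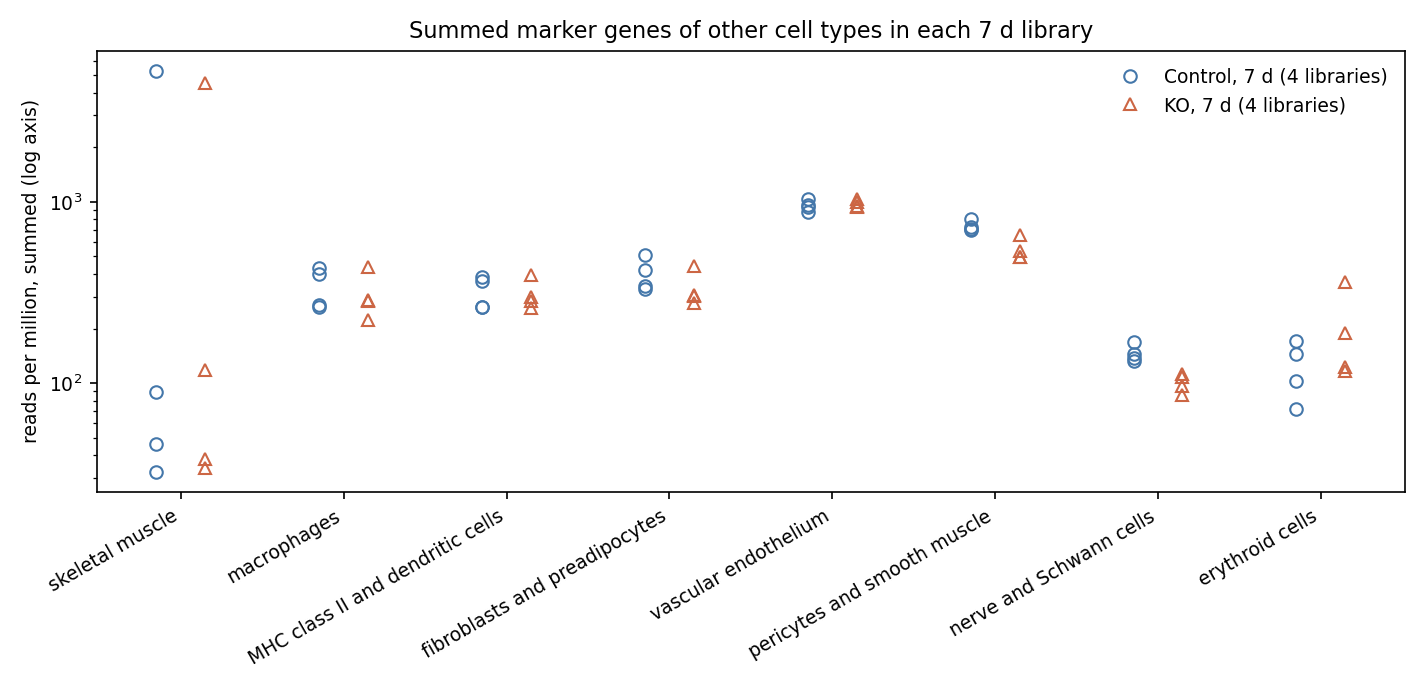
CPM, counts scaled to the library total (log axis), summed over the marker genes of each cell type, in each 7 d library, circles for Control and triangles for KO. Muscle markers reach 5274 in 1 Control and 4537 in 1 KO library, and the pericyte and smooth muscle sums of KO, 497 to 652, lie under those of Control.

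Calls at 7 d overlapped in part with those of mice never exposed to cold, which share no library with them and of whose 12710 rows 34.3% were called. Of 1130 genes higher at 7 d and listed in both tables, 728 were also higher at 22 °C, which is 64.4% of the 7 d list and 36.6% of the 1989 at 22 °C. Of 749 lower, 466 were also lower, 62.2% of the 7 d list and 20.7% of the 2246 at 22 °C. Calls in opposite directions were 46 genes higher at 7 d and lower at 22 °C and 16 lower at 7 d and higher at 22 °C. The effect itself differed for 1569 of 10591 genes tested (14.8%), with 1009 more positive and 560 more negative at 7 d, and limma-voom gave 957 (8.5%) and 628 (5.58%) of 11253. Of the genes lower at 22 °C, 1734 were not called at 7 d. Of the 1628 of these that could be tested, 701 had a called difference toward higher at 7 d (9.53% of all genes tested did). They were picked by the same values that form the difference, so an excess in that direction is built in. Without the 6 muscle-rich libraries of the series, limma-voom called 486 more positive and 289 more negative differences.

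Cox7a1 and Ldhb gave 2 of the smallest p-values of this difference. Cox7a1, a cytochrome oxidase subunit of heart and brown fat, had deposited means of 924 and 56.4 RPKM at 22 °C and of 1234 and 863 RPKM at 7 d in Control and KO (difference 3.35, adjusted p = 1.3e-32). Ldhb, the lactate dehydrogenase of oxidative tissues, gave a difference of 2.47 (adjusted p = 2.3e-27). Kng2 showed another course, with means of 38.0 and 0.0973 RPKM at 22 °C, 61.3 and 21.3 RPKM at 24 h, and 29.1 and 3.31 RPKM at 7 d. Its deposited effects of -8.30, -1.39 and -3.07 differed between 7 d and 22 °C by 5.23 (adjusted p = 1.1e-30) and between 7 d and 24 h by -1.68 (adjusted p = 0.0012). Lgr6 went the same way at 22 °C, where 1 read was recovered in the KO and 1139 in Control.

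Other genes changed sign. Cyp2b10, higher at 7 d, was lower at 22 °C (-2.30, adjusted p = 9.0e-05), a difference of 5.44 (adjusted p = 3.2e-11). Hsd11b1, which regenerates active glucocorticoid in fat, was at 83.3, 107, 77.9 and 77.3 RPKM in Control and 37.2, 19.8, 23.7 and 27.2 in KO at 7 d (-1.61, adjusted p = 4.9e-09), but was higher in KO at 22 °C (0.90, adjusted p = 9.3e-04), a difference of -2.51 (adjusted p = 5.1e-11). At 7 d its 4 KO libraries all lay under the Control range. Igf1, insulin-like growth factor 1, was lower at 7 d (-0.71, adjusted p = 0.024, not called by limma-voom) and higher at 22 °C (1.76, adjusted p = 4.4e-12), a difference of -2.47 (adjusted p = 5.6e-11). H2-Q10, a class I histocompatibility gene with close copies, did likewise, with a difference of -2.82 (adjusted p = 2.0e-11).

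**Figure D5:**
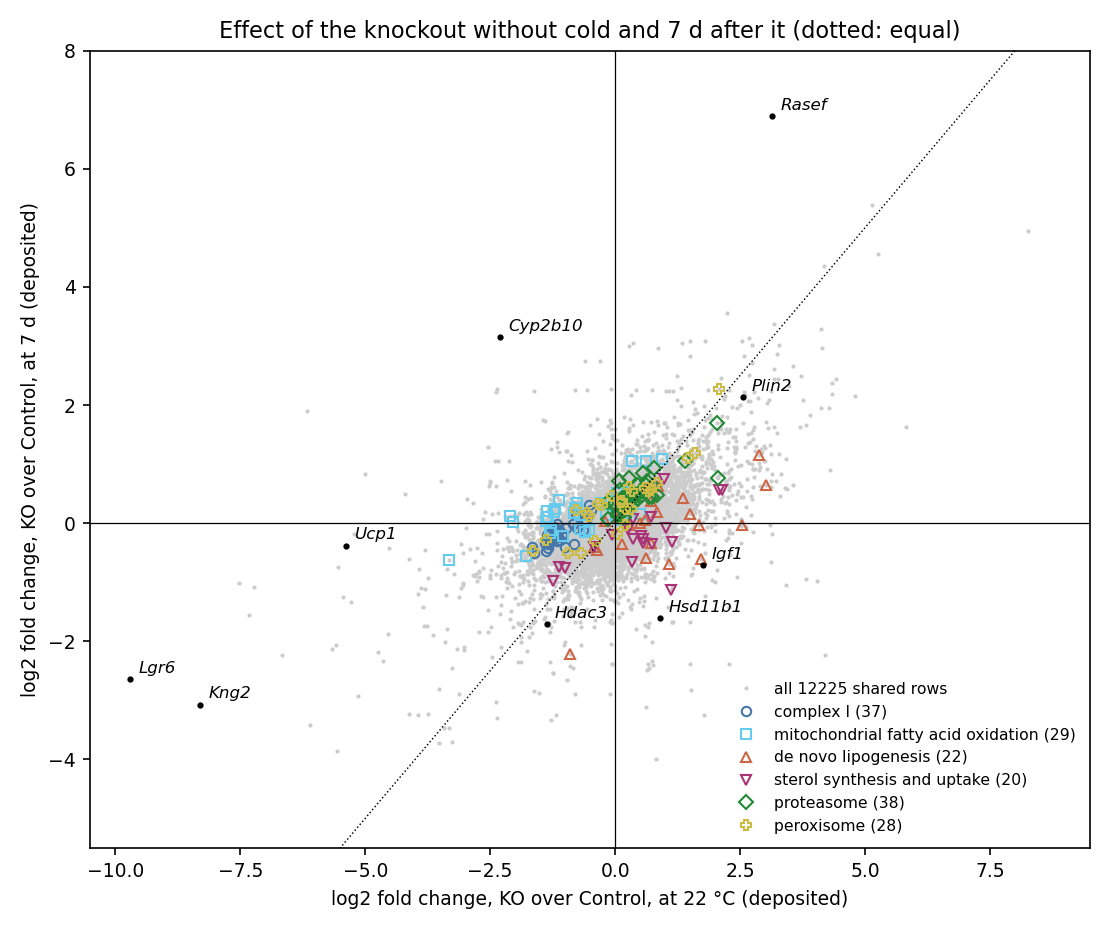
Deposited log2 fold change of KO over Control at 7 d (vertical) against that at 22 °C without cold (horizontal) for the 12225 shared genes in grey and the members of 6 lists in colour, with the line of equal effects dotted. Complex I genes lie between -1.66 and -0.48 at 22 °C and between -0.50 and 0.31 at 7 d, and proteasome genes between 0.07 and 1.70 at 7 d.

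Fewer differences passed between the effects at 7 d and at 24 h after the cold. Of 1138 genes higher at 7 d and listed at both times, 784 were higher at 24 h, 68.9% of the 7 d list and 59.4% of the 1319 at 24 h, and of 758 lower, 412 were lower at 24 h (54.4% and 42.0% of the 980). At 24 h 10.5% of all rows were called higher and 7.96% lower. The difference passed for 21 of 10425 genes (0.201%), 12 more positive (0.115%) and 9 more negative (0.0863%), and limma-voom called 1 of 11253 (0.00889%). Slc25a34, a mitochondrial carrier, had deposited means of 23.2 RPKM in Control and 29.2 in KO at 24 h, and at 7 d of 3.54 and 26.4 RPKM. At 7 d it was at 2.617, 7.218, 1.998 and 2.331 RPKM in Control, highest in the muscle-rich library, and 28.4, 33.3, 20.7 and 23.3 in KO (2.96, adjusted p = 4.7e-11), and the difference from 24 h was 2.47 (adjusted p = 0.017). Cdkn1a (difference 1.93, adjusted p = 0.013) and Arntl (1.62, adjusted p = 0.035) were more positive at 7 d. Scd2, a stearoyl-CoA desaturase (-1.48, adjusted p = 0.035), Vldlr, the VLDL receptor (-0.84, adjusted p = 0.035), and Dbp, a clock output factor (-0.83, adjusted p = 0.035), were more negative. Dbp was at 37.9 to 46.6 RPKM in Control and 36.1 to 48.3 in KO at 7 d, overlapping fully, with a deposited effect of 0.95 at 24 h (adjusted p = 6.9e-09). Wdtc1, a substrate receptor gene known for restraining fat storage, was the gene that limma-voom also called for this difference (deposited difference 1.00, adjusted p = 0.0071).

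Calls made at 7 d alone were set against the test of the difference. Of 356 genes higher at 7 d and not called at 22 °C, 333 could be tested and 98 differed toward higher at 7 d, and of 267 lower, 256 could be tested and 46 differed toward lower. Against 24 h the same counts were 7 of 340 tested and 0 of 327. Of all genes tested, 9.53% differed from 22 °C toward higher and 5.29% toward lower, and 0.115% and 0.0863% from 24 h. The genes counted were picked by the same values that form the difference, so an excess in that direction is built in. A gene whose difference did not pass is not shown to respond alike in both conditions. Calls in neither of the other conditions numbered 147 genes higher (13.1% of 1126 listed in all 3 tables) and 179 lower (24.0% of 745).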

How the data were processed

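RNA-seq of brown adipose tissue was deposited as 5 tables of gene comparisons. Reads were mapped with STAR to mm9, counted with featureCounts and tested with edgeR, per the submitters' processing notes, without versions. The authors deposited log2 fold changes, average log2 CPM, p-values, adjusted p-values and group means, which are read here as RPKM, since they behave as reads scaled to length and library total. A gene is listed where its higher group mean is at least 0.5 RPKM. The kit does not mark strand, so overlapping genes cannot be told apart.

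The deposited adjusted p under 0.05 is the main call. Errors were rebuilt from deposited p-values up to 0.9, and differences between conditions were tested as normal scores with Benjamini-Hochberg adjustment over all genes. Whole reads per library were recovered from the deposited RPKM means, giving 96.0% of Control and 94.8% of KO means at 7 d, and limma-voom (limma 3.58.1, R 4.3.3, at least 10 summed reads) was run on them as an alternative chosen after seeing the data. Intervals cover counting error only. Tests were tried on simulated data.

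Named genes were the Hdac3 complex and Ucp1, the 12 largest changes and 8 smallest p-values per direction among genes whose average log2 CPM reached 1, up to 5 members of each list with at least 2 called, and the 8 smallest p-values per direction of each difference, passing over predicted loci. Other list members are given by value, and Gdf15, Cox8b, Zic1 and Lhx8 were chosen after their values were seen. Members and lists were chosen with earlier results of these data known. Some named genes are not reported here.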

Additional observations from a re-analysis of the deposited data

Results flagged for a closer look

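In 14 of 203 groups of 4 libraries the highest or the lowest library stood far from the other 3, where chance gives about 1 in 20. These were Adrb3 in KO library 3 (highest, 55.6 RPKM), Akt1 in KO library 1 (lowest, 40.01 RPKM), Atf4 in KO library 2 (highest, 79.6 RPKM), Cbs in Control library 1 (highest, 0.128 RPKM), Cyp2f2 in KO library 2 (highest, 4.68 RPKM), Gdf15 in KO library 2 (highest, 2.71 RPKM) and Hmox1 in KO library 2 (highest, 228 RPKM). The others were Lctl in Control library 3 (highest, 33.2 RPKM), Prkaca in Control library 2 (lowest, 69.1 RPKM), Rnf128 in KO library 1 (highest, 0.292 RPKM), S100b in KO library 2 (highest, 7.14 RPKM), Slc25a34 in Control library 2 (highest, 7.22 RPKM), Sorcs2 in KO library 4 (highest, 1.65 RPKM) and Tagln in KO library 1 (highest, 5.03 RPKM). KO library 2 was the high one in 5 of them. Skeletal muscle markers stood apart in the same way, at 5274 CPM in Control library 2 and 4537 in KO library 1.

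The deposited effect of the knockout at 7 d was more positive than at 22 °C without cold by a test of the difference for these printed genes, each with its log2 difference, namely Mrps30 (0.55), Prkaca (0.60), Vldlr (0.63), Tomm70a (0.66), Mlycd (0.71), Plin5 (0.71), Mrps18b (0.81), Prdx6 (0.83), Wdtc1 (0.87), Adcy3 (0.88), Ndufa4 (0.90), Mrpl45 (0.90), Ndufb2 (0.91), Hspd1 (1.00), Pfkl (1.00), Cebpb (1.03), Cox8b (1.07), Ndufs8 (1.12), Cidea (1.12), Cox7b (1.13), Phyh (1.17), Hsp90aa1 (1.22), Mtfp1 (1.23), Hba-a2 (1.24), Hba-a1 (1.24), Fh1 (1.25), Ndufv1 (1.26), Ppara (1.73), Cox10 (1.86), Slc25a34 (2.10), Sucla2 (2.15), Sorcs2 (2.21), Ldhb (2.47), S100b (2.56), Aldoc (2.69), Acaa2 (2.69), Cox7a1 (3.35), Rasef (3.75), Ucp1 (5.00), Kng2 (5.23), Cyp2b10 (5.44) and Lgr6 (7.06).

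The deposited effect of the knockout at 7 d was more negative than at 22 °C without cold by a test of the difference for these printed genes, each with its log2 difference, namely H2-Q10 (-2.82), Hsd11b1 (-2.51), Igf1 (-2.47), Insig1 (-2.37), Slc25a1 (-2.31), Zfp185 (-2.05), Me1 (-1.73), Elovl5 (-1.67), Scd2 (-1.66), Adcy5 (-1.58), Fgf14 (-1.34), Acsl5 (-1.31), Rora (-1.27), Adrb3 (-0.99), Per3 (-0.84), Pcx (-0.77), Dbp (-0.74), Sirt7 (-0.71), Fah (-0.65) and Sod1 (-0.55).

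The deposited effect of the knockout at 7 d was more positive than at 24 h by a test of the difference for these printed genes, each with its log2 difference, namely Wdtc1 (1.00), Arntl (1.62), Cdkn1a (1.93) and Slc25a34 (2.47).

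The deposited effect of the knockout at 7 d was more negative than at 24 h by a test of the difference for these printed genes, each with its log2 difference, namely Kng2 (-1.68), Scd2 (-1.48), Vldlr (-0.84) and Dbp (-0.83).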

How the results depend on the processing

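No paired analysis was possible because the recovered libraries cannot be tied to the replicate numbers of the labels. With limma-voom on recovered reads, leaving out 1 library at a time gave 1322 to 2024 calls at 7 d, of which 774 to 1171 were higher and 548 to 853 lower. An adjusted p under 0.01 left 1205 calls, 411 of them lower. A Bonferroni adjustment left 456, of which 320 were higher and 136 lower, and a fold of at least 1.5 left 1172, 689 higher and 483 lower. A mean of at least 5 RPKM left 435 lower calls. Without scaling factors 1350 were lower. With errors rebuilt from a t score with 18 degrees of freedom, 885 differences were more negative at 7 d than at 22 °C. From 24 h there were then 164 differences, 78 more positive and 86 more negative. The difference was still tested as a normal score, so this setting only makes the errors smaller and is not a t test. At least 1 RPKM in every group left 7 more positive differences from 24 h. Limma-voom gave 1 difference from 24 h, 1 more positive and 0 more negative. Without the 6 muscle-rich libraries it gave 775 differences from 22 °C, 486 more positive and 289 more negative, and 0 from 24 h, 0 in either direction. The causes were not tested beyond the fewer libraries or genes each setting used. Of 90 printed genes with a limma-voom value, 8 lost their call, namely Chil3, Col1a1, Col5a1, Dusp1, Gdf15, Gldc, Hmox1 and Igf1. Direction was compared only for printed genes called at 7 d, and none of these changed direction under the settings tried.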
